A study of Sus scrofa with 6 samples.

Results

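Toll-like receptors are sentinel proteins that recognise molecules of microbes and of damaged cells. TLR1, TLR2, TLR4, TLR5 and TLR6 act at the cell surface, mostly on lipoproteins, lipopolysaccharide and flagellin, and TLR3, TLR7, TLR8 and TLR9 act in endosomes on nucleic acids. All except TLR3 pass their signal through the adaptor MYD88, and TLR3 uses the adaptor TICAM1 instead. In the liver, which receives gut-derived microbial products through the portal vein, these receptors are known from Kupffer cells, endothelial cells, dendritic cells and hepatocytes.

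The genes were chosen by symbol from the annotation of the array, TLR1 to TLR9 and MYD88. Of these 10 genes 9 were found, among 10245 named genes and 25385 transcript clusters in all, a transcript cluster being the unit for which the array gives a signal. TLR5, the flagellin receptor, has no entry by symbol, RefSeq transcript or Ensembl gene in the annotation used here and was not analysed. The 9 genes had 14 clusters with 12 distinct sets of values, and where clusters competed for a gene, the brightest by mean signal stood for it.

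Liver tissue was collected from adult male German landrace pigs after extended partial hepatectomy (ePHx), a resection that all animals measured here had undergone. The control group (3 arrays) received Ringer solution as vehicle. The MSC group (3 arrays) received porcine bone marrow mesenchymal stromal cells, differentiated in culture towards hepatocytes, by central venous infusion. Each array stands for 1 animal by the methods, although the labels name no animals. No array of an unresected animal was analysed here, so the values say nothing about how ePHx itself moved the receptors. The 12 measured hepatocyte markers all had a mean above the background level defined in the next paragraph. Whole tissue was measured, in which fewer cells of a type and less RNA per cell cannot be told apart.

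Values are RMA signals on the log2 scale. The background level of 8.18 is the 95th percentile of 23 probe sets without a target in the genome, whose median signal was 3.95. It is a strict level, and 22.2% of all clusters had a mean above it. Levels of different genes come from different probes and are not set against each other. A gene is said to have risen or fallen where limma gave an unadjusted p under 0.05 and the absolute log2 difference was at least 0.5, the threshold of the study.

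Among the receptors TLR3, the sensor of double-stranded RNA, was the only one to pass this threshold, and it rose in MSC. MYD88 was also higher on every MSC array than on every control array, by a small amount that did not pass. The surface receptors TLR1, TLR2, TLR4 and TLR6 and the endosomal receptors TLR7, TLR8 and TLR9 overlapped between groups. Only TLR3 and MYD88, 2 of the 9 genes, had a mean above the background level. Over all 25385 clusters 2.73% passed the threshold (1.24% higher and 1.49% lower in MSC), and 1 of the 9 genes did. The median difference of the 9 genes was 0.08 against -0.01 over all clusters, with 5 genes positive and 4 negative (46.7% of all clusters were positive). After Benjamini-Hochberg adjustment over all clusters limma called 0 clusters (lowest adjusted p = 0.176, with 1662 clusters, 6.55%, at an unadjusted p under 0.05), and the adjusted p of the 9 genes ran from 0.757 to 0.999.

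**Figure D1:**
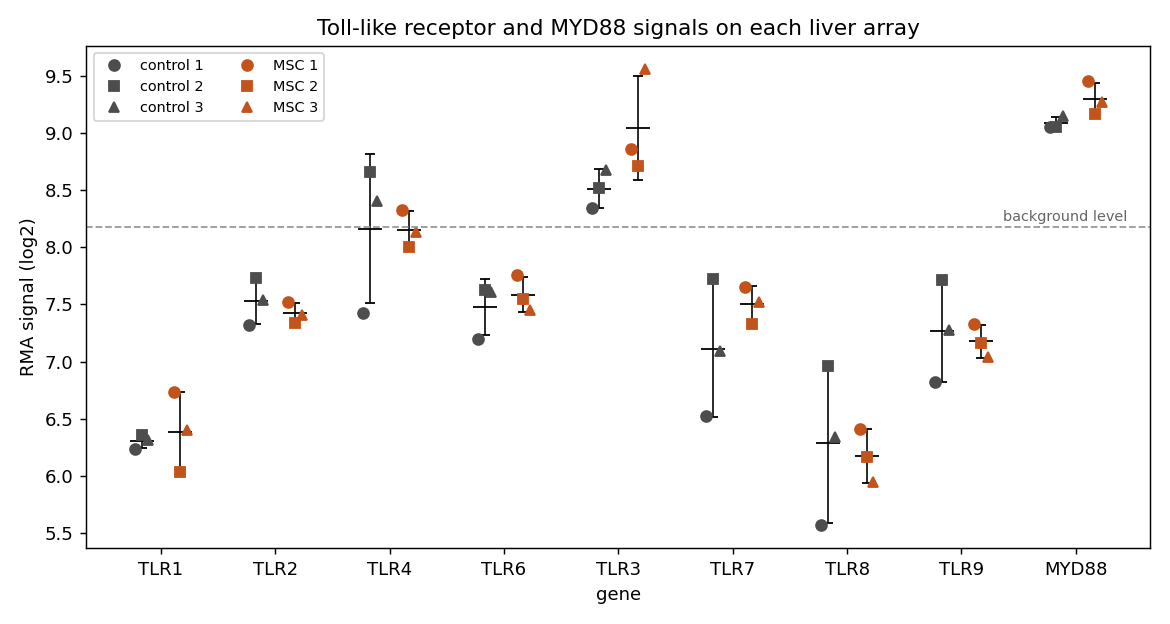
RMA signal (log2, vertical axis) of each gene on each array, control in grey and MSC in orange, with a marker shape for each replicate number, group means (bars) ± SD (n = 3 arrays) and the background level of 8.18 (dashed). MSC lies above control without overlap for TLR3 and MYD88 alone, and control 1 is the lowest of the 6 arrays for 7 of the 9 genes.

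TLR3 had signals of 8.34, 8.52 and 8.68 on the control arrays, given here and below in the order of their numbers, and of 8.87, 8.71 and 9.56 on the MSC arrays. Its groups did not overlap, with MSC 3 far above the other arrays and MSC 2 next to control 3. The mean rose from 8.51 ± 0.17 to 9.05 ± 0.46 (SD, n = 3 arrays per group), a 1.45-fold difference. In limma the log2 difference was 0.53 (95% interval 0.01 to 1.06, unadjusted p = 0.0475, adjusted p = 0.757). The cluster lies on chromosome 15, all of its 29 probes are assigned to the TLR3 transcript, and all 6 signals lay above the background level. The call was lost without control 1 (0.45), control 2 (0.53), control 3 (0.62), MSC 1 (0.62) or MSC 3 (0.27), and it held without MSC 2 (0.70). With repeated quantile normalization the difference was 0.48 and did not pass.

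MYD88, the adaptor that joins the other receptors to the IRAK kinases, had signals of 9.05, 9.05 and 9.15 on the control arrays and of 9.45, 9.17 and 9.28 on the MSC arrays. The lowest MSC array was 0.02 above the highest control array, so the separation was narrow. The log2 difference was 0.21 (95% interval -0.07 to 0.50, adjusted p = 0.767 by limma), and it stayed between 0.14 and 0.28 with 1 array left out. With 3 arrays against 3, a two-sided exact permutation test cannot go below p = 0.10, the value that TLR3 and MYD88 both had. Groups without overlap were found in 11.6% of all clusters, with MSC above in 5.64% and below in 5.96%, and in 2 of the 9 genes, both with MSC above.

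**Figure D2:**
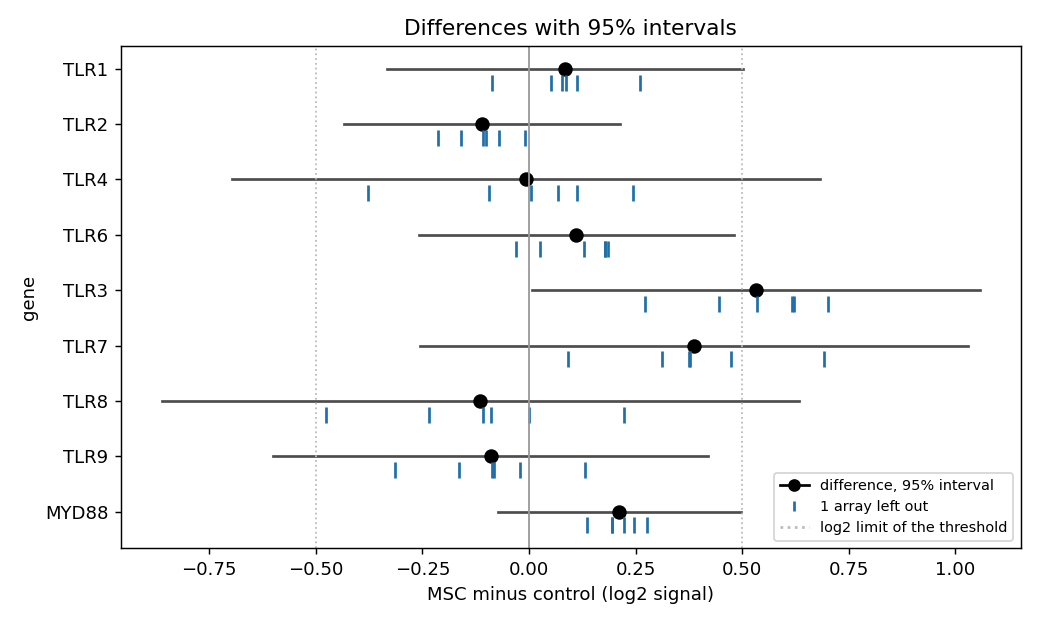
Difference of MSC minus control (log2, horizontal axis) for each gene, with its 95% interval from limma (lines) and the differences with 1 array left out (blue ticks); dotted lines mark a log2 difference of 0.5 in each direction. The interval of TLR3 (0.01 to 1.06) alone does not reach 0, and those of TLR4, TLR7 and TLR8 are the widest.

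The lipopolysaccharide receptor TLR4 had 7.42, 8.66 and 8.40 on the control arrays and 8.33, 8.01 and 8.13 on the MSC arrays. Control 1 was the lowest array and control 2 the highest, with all MSC arrays between them. The log2 difference was -0.01 (95% interval -0.70 to 0.68), a range wide enough to hold a change past the threshold in either direction. Its control signals spanned 1.24 and its MSC signals 0.32. The annotation assigns 20 of the 28 probes of this cluster, on chromosome 1, to the TLR4 transcript.

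TLR2, the lipoprotein receptor that pairs with TLR1 or TLR6, had 7.32, 7.73 and 7.54 on the control arrays and 7.52, 7.34 and 7.41 on the MSC arrays. The groups overlapped and the log2 difference was -0.11 (95% interval -0.43 to 0.21). A second TLR2 cluster, on the opposite strand, differed by 0.14 (95% interval -0.33 to 0.61), so the direction of TLR2 depended on the cluster. TLR1 had 6.24, 6.36 and 6.31 on the control arrays and 6.73, 6.03 and 6.40 on the MSC arrays, which lay on both sides of the controls. Its log2 difference was 0.08 (95% interval -0.33 to 0.50).

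For TLR6 the array holds 2 measurements that differ in level and in what their probes match. The cluster with the higher signal had 7.19, 7.62 and 7.61 on the control arrays and 7.76, 7.55 and 7.45 on the MSC arrays, with overlapping groups and a log2 difference of 0.11 (95% interval -0.26 to 0.48). The annotation assigns only 6 of its 27 probes to the TLR6 transcript. The other cluster, with all 26 of its probes assigned to TLR6, had 4.03, 4.06 and 3.96 on the control arrays and 4.32, 4.23 and 4.31 on the MSC arrays. It did not overlap between groups, and its log2 difference was 0.27 (95% interval 0.02 to 0.52, unadjusted p = 0.0394 and adjusted p = 0.741 by limma). This difference is below the 0.5 of the threshold, and the signals lay close to the median of the background probe sets (3.80 to 4.08 on the 6 arrays). That cluster was singled out after its values had been seen.

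Each TLR6 cluster is listed on both strands of chromosome 8 with the same 6 values, and both are marked for possible cross-hybridization. On the minus strand the clusters run in the order TLR10 (25685648 to 25695941), the brighter TLR6 cluster (25708709 to 25716544) and the fully assigned TLR6 cluster (25722740 to 25741739). The TLR1 cluster (25710727 to 25711017, plus strand) lies within the bounds of this minus-strand entry of the brighter TLR6 cluster. The plus-strand entry of that TLR6 cluster (25576111 to 25583946), which stood for the gene, does not hold it. In the RefSeq annotation of Sscrofa11.1 the neighbours run TLR10, TLR1, TLR6, and TLR6 is listed there as a synonym of TLR1. No source used here gives the genome build of the array's positions. Whether the brighter cluster reads TLR6, TLR1 or both was therefore not settled, and the values of both genes are uncertain to that extent.

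**Figure D3:**
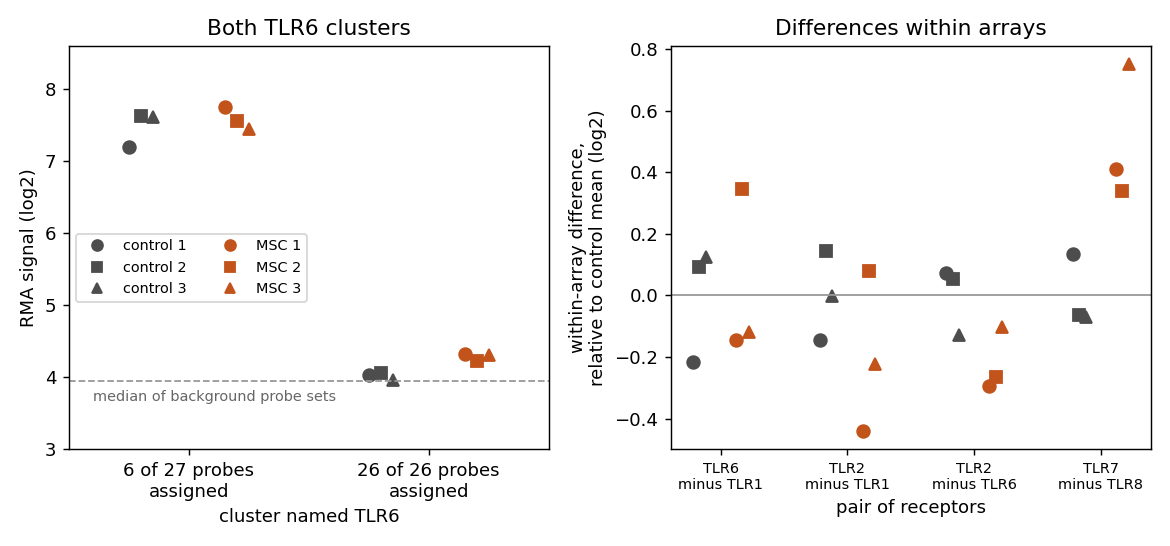
Left, RMA signal (log2) of both TLR6 clusters on each array, with the median of the background probe sets (3.95, dashed). Right, the difference between 2 receptors on the same array (log2), with the mean of the control arrays set to 0. The fully assigned TLR6 cluster is higher on all MSC arrays, close to background. Of the 4 pairs only TLR7 minus TLR8 separates the groups, a difference that was not tested.

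TLR7 and TLR8 are endosomal sensors of single-stranded RNA whose genes are neighbours on chromosome X. TLR7 had 6.52, 7.72 and 7.09 on the control arrays and 7.65, 7.33 and 7.52 on the MSC arrays. TLR8 had 5.56, 6.96 and 6.34 on the control arrays and 6.41, 6.16 and 5.95 on the MSC arrays. In both genes control 1 was the lowest and control 2 the highest of the 6 arrays, and the MSC arrays lay between them. The log2 difference was 0.39 for TLR7 (95% interval -0.26 to 1.03) and -0.11 for TLR8 (95% interval -0.86 to 0.63). Without control 2, TLR7 passed the threshold (0.69), and without control 1 it was at 0.09.

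On the control arrays most of this spread was shared between both genes on the same array. On the MSC arrays it was not, with an SD of 0.16 for TLR7, 0.23 for TLR8 and 0.22 for their difference. The signal of TLR7 minus that of TLR8 was 0.96, 0.76 and 0.76 on the control arrays and 1.24, 1.17 and 1.58 on the MSC arrays. The MSC arrays were all higher than the control arrays, by a mean of 0.50 on the log2 scale (0.83 ± 0.12 against 1.33 ± 0.22, SD, n = 3). It was between 0.38 and 0.58 with 1 array left out. This difference between the groups was not tested, and it does not say which of the genes differed. Groups without overlap were found in 11.6% of single clusters, and the share over pairs of genes was not computed. The other pairs, TLR6 and TLR1, TLR2 and TLR1 and TLR2 and TLR6, overlapped between groups (0.03, -0.19 and -0.22). The annotation assigns 16 of 24 probes to TLR7 and 14 of 19 to TLR8, and RefSeq lists TLR7 as a synonym of TLR8.

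TLR9, the receptor for unmethylated CpG DNA, had 6.82, 7.71 and 7.27 on the control arrays and 7.33, 7.16 and 7.04 on the MSC arrays. Its groups overlapped, with control 1 lowest and control 2 highest again, and the log2 difference was -0.09 (95% interval -0.60 to 0.42). A second TLR9 cluster of 10 probes differed by -0.0016 (95% interval -0.57 to 0.57) with the same 2 control arrays at the ends.

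One control array thus stood below the rest for most receptors. Control 1 was the lowest of the 6 arrays for TLR2, TLR3, TLR4, TLR6, TLR7, TLR8 and TLR9, which is 7 of the 9 genes, whereas it was lowest in 17.7% of all clusters. Among the control arrays alone it was the lowest for 8 of the 9 genes and for 34.9% of all clusters. The median deviation of the 9 genes from their own means was -0.40 on control 1 and 0.26 on control 2, and between -0.07 and 0.18 on the other 4 arrays. Without control 1 the log2 difference was -0.38 for TLR4, -0.48 for TLR8, -0.31 for TLR9 and -0.21 for TLR2, and none of the 9 genes passed.

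Markers of some cell types moved with it, and those of others did not. The 10 measured Kupffer cell and macrophage markers had a median deviation of -0.42 on control 1 and between 0.02 and 0.14 on the other 5 arrays, with 8 of the 10 lowest on control 1 among the controls. The mean signal of this list ran from 8.41 to 8.90 in control and from 8.76 to 8.93 in MSC. The 8 endothelial markers deviated by -0.37 on control 1 and by 0.55 on control 2, and the 5 dendritic cell markers by -0.36 and 0.52. The 12 stellate cell and fibroblast markers had the lowest median of all marker lists on control 1 (-0.44), with 0.41 on control 2. On control 1 the T and NK cell list was at -0.21 and the bile duct list at -0.15. The lists of monocytes and neutrophils (0.02), B cells (0.03) and platelets (0.15) were not lowered there. The 12 hepatocyte markers went the other way, at 0.21 on control 1 and -0.24 on control 2. The part of these cell types in the receptor values was not tested. The B cell list had 4 measured markers, CD79A alone above the background level, and all 11 T and NK cell markers had means below it. Means above it were also few among dendritic cell (1 of 5), bile duct (1 of 6), monocyte and neutrophil (2 of 8) and platelet markers (0 of 4). They were more frequent among macrophage (6 of 10), endothelial (6 of 8) and stellate cell and fibroblast markers (10 of 12).

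**Figure D4:**
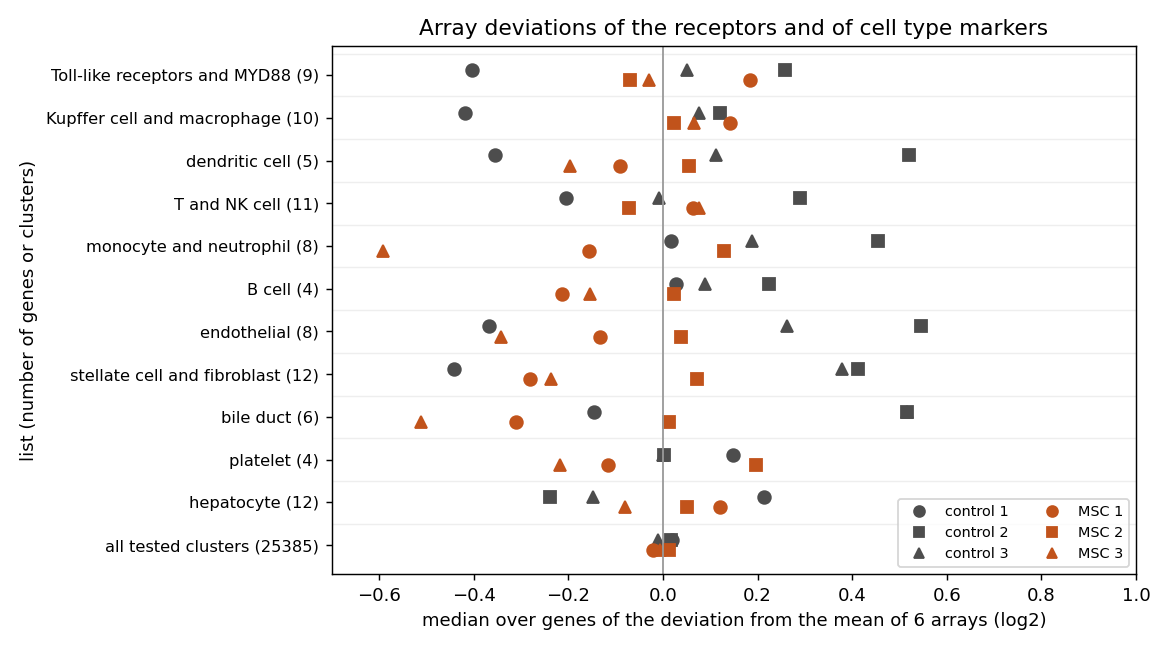
Median over the genes of each list of their deviation from their own mean over 6 arrays (log2, horizontal axis), for the receptors with MYD88, for markers of cell types and for all clusters, with the number of genes in parentheses. Control 1 lies at -0.40 for the receptors and at -0.42 for macrophage markers, and at 0.21 for hepatocyte markers.

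Within the macrophage list the markers did not go one way. The phosphatidylserine receptor TIMD4, a marker of resident Kupffer cells, rose from 6.64 ± 0.07 to 7.48 ± 0.36 (SD, n = 3 arrays per group), and SIGLEC1 rose by 0.59. The scavenger receptor MSR1 fell by 0.74 on the log2 scale. Over the monocyte and neutrophil list 7 of 8 markers were negative (median -0.37), and S100A8 (-0.80) and VCAN (from a mean of 9.39 to 8.40) fell. The endothelial marker VWF (-0.71), the pericyte marker RGS5 (-0.67) and the bile duct markers CFTR (-0.94) and EPCAM (-0.77) fell as well. The adjusted p of all these calls was 0.736 to 0.739 by limma. Of the called markers TIMD4, SIGLEC1, S100A8, VWF and EPCAM had both group means below the background level. The groups overlapped for SIGLEC1, MSR1, S100A8, VCAN and EPCAM. Among lists without a call the smallest p belonged to PPBP (-0.49), CLEC9A (0.32), SERPINA1 (0.26) and IL7R (-0.88), markers of platelets, dendritic cells, hepatocytes and T cells in that order. Their unadjusted p by limma was 0.033, 0.073, 0.14 and 0.17. CLEC9A had means of 2.60 and 2.92, under the median of the background probe sets (3.95). IL7R was at 7.08 on control 2 and at most at 5.47 on the other arrays.

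The other genes of Toll-like receptor signalling were taken from 6 lists, in which 73 of 106 genes had a cluster. Of these 0 rose and 3 fell past the threshold, CD36, CXCL8 and IL1A, which is 4.11%. With 1 cluster for each of the 10245 named genes the share was 2.62%, of which 1.54% rose and 1.07% fell. In 6 genes all MSC arrays lay above all control arrays, and in 0 below, where such a separation was found in 11.1% of the named genes.

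Among the co-receptors, CD14, which hands lipopolysaccharide to TLR4, had 8.89, 8.59 and 8.86 on the control arrays and 9.32, 9.20 and 9.28 on the MSC arrays. Every MSC array was above every control array. The log2 difference of 0.48 (95% interval 0.19 to 0.78, unadjusted p = 0.00543, adjusted p = 0.736 by limma) lay just under the size that the threshold asks for, and CD14 passed with median centring (0.52) and without control 1 (0.54), control 3 (0.52) or MSC 2 (0.52). LY96, the partner of TLR4 in lipopolysaccharide binding, had a log2 difference of -0.48 (95% interval -1.15 to 0.20) with overlapping groups. Its difference was -0.79 and past the threshold without control 1. CD36, a co-receptor of TLR2 and TLR6, fell by 1.04 on the log2 scale, which it did not without control 2 (-0.61), MSC 2 (-0.91) or MSC 3 (-0.88).

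Of the 18 measured adaptors and early kinases none passed. TIRAP, which brings MYD88 to TLR2 and TLR4, had 6.43, 6.41 and 6.81 on the control arrays and 6.97, 7.05 and 6.93 on the MSC arrays. Its groups did not overlap, like those of MYD88, and the log2 difference was 0.43 (95% interval 0.10 to 0.76, unadjusted p = 0.0171, adjusted p = 0.736 by limma). It passed the threshold without control 3 (0.56), and its cluster is marked for possible cross-hybridization. TICAM2, which links TLR4 to the TICAM1 branch, differed by 0.38 (95% interval -0.08 to 0.85) and passed without MSC 2 (0.59), and the kinase-binding protein TAB1 by 0.24 without overlap. TICAM1, the adaptor of TLR3, had no cluster by symbol. IRAK1, IRAK4 and TRAF6, the core of the pathway downstream of MYD88, differed by -0.13, 0.08 and 0.08.

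The 9 measured transcription factors and 7 measured inhibitors had 0 genes past the threshold. REL, a subunit of NF-kappaB, differed by -0.42 (95% interval -0.94 to 0.09) and passed without control 1 (-0.64), and RELA differed by 0.17. ATF3 differed by -0.58 (95% interval -1.70 to 0.55), by -0.10 without MSC 3 and by -1.08, past the threshold, without MSC 2. CD180, a relative of TLR4 that lacks its signalling domain, had 7.28 on control 1 and between 8.28 and 8.81 on the other 5 arrays. Its log2 difference of 0.36 became -0.09 without control 1. The feedback inhibitors NFKBIA and TNFAIP3 differed by -0.09 and -0.04, IRAK3 by 0.18, and the ubiquitin ligase RNF216 by -0.27.

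Target cytokines and chemokines were mostly lower, with 14 of 20 negative and a median log2 difference of -0.21. Only CCL2 of the 20 had a mean above the background level, so the means of CXCL8, IL1A and IL6 lay below it. The neutrophil chemokine CXCL8 had 7.34, 8.02 and 8.32 on the control arrays and 6.93, 7.45 and 6.13 on the MSC arrays, and it fell by 1.05 on the log2 scale (95% interval -1.89 to -0.22). MSC 2 was above control 1, so the groups overlapped. IL1A fell by 0.87 (95% interval -1.71 to -0.03) from a mean of 6.31 to 5.44. IL6 differed by -1.08 (95% interval -2.18 to 0.02), and without control 1 by -1.68, past the threshold. TNF differed by 0.11 and the interferon-induced chemokine CXCL10 by 0.83 (95% interval -0.34 to 1.99). CXCL10 was at 8.76 on MSC 3, the array that was also highest for TLR3, and at most at 7.09 on the others. MSC 3 was also the highest array for some other genes known to be induced by interferon, picked after their values were seen. IFIH1 was at 9.12 there and at most at 8.35 on the other arrays, DHX58 at 8.74 against 7.84, IRF7 at 7.88 against 7.36 and SIGLEC1 at 8.09 against 7.54. Not all such genes did so. IRF1 and CCL5 were at 7.43 and 7.56 on MSC 3 and highest on control 2, at 8.01 and 8.18. The part of interferon-induced genes in the TLR3 value, which was 0.27 without MSC 3, was not tested. The call of CXCL8 was lost without control 2, control 3 or MSC 3 (-0.99 to -0.70), and IL1A kept its call only without control 1 (-1.30). Of all 73 pathway genes 16 passed without control 1, where 8.73% of all clusters passed, and 0 without control 2, where 1.75% did.

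**Figure D5:**
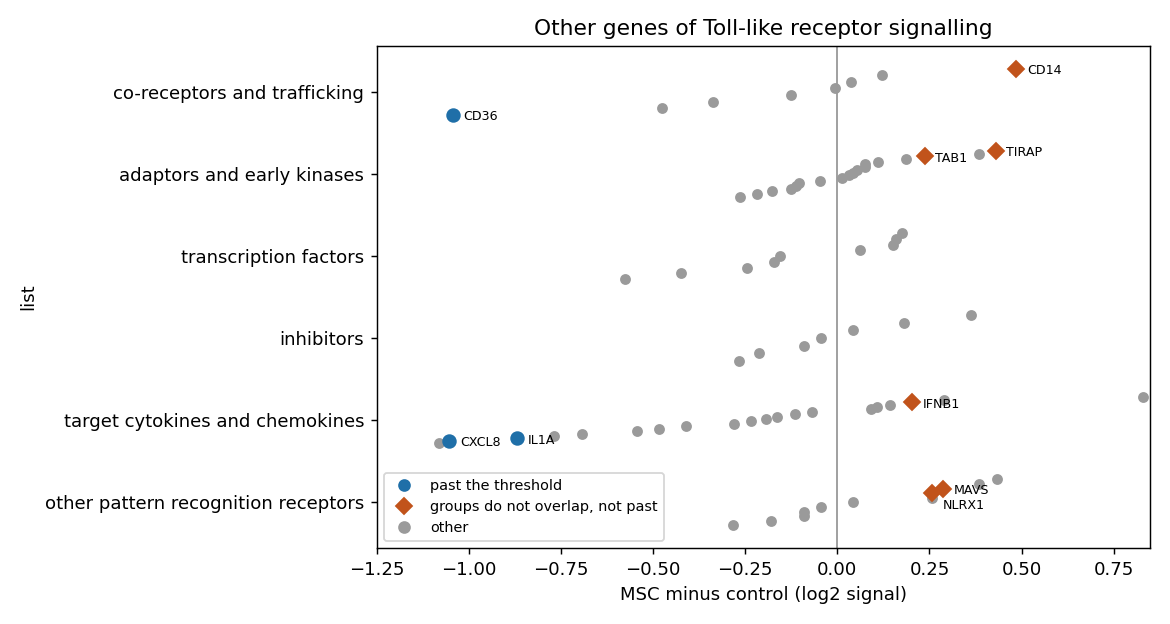
Difference of MSC minus control (log2, horizontal axis) for the 73 measured genes of 6 lists of Toll-like receptor signalling, 1 point a gene, with genes past the threshold in blue and other genes whose groups do not overlap as orange diamonds. CD36, CXCL8 and IL1A lie on the left, and CD14, TIRAP, TAB1, MAVS, NLRX1 and IFNB1 separate the groups on the right. The means of IFNB1 (3.68 in control and 3.88 in MSC) lie under the median of the background probe sets (3.95).

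In the list of other pattern recognition receptors 11 of 21 genes were measured and none passed. MAVS, the mitochondrial adaptor of the cytosolic RNA sensors, had 7.71, 7.67 and 7.64 on the control arrays and 7.94, 7.81 and 8.13 on the MSC arrays. The groups did not overlap, and the log2 difference was 0.29 (95% interval -0.004 to 0.58). The mitochondrial regulator NLRX1 differed by 0.26, also without overlap, and CASP1 by 0.26 with overlap. Both group means of MAVS and NLRX1 lay below the background level.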

How the data were processed

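Liver RNA was measured on porcine whole-transcript arrays (Affymetrix), and the authors summarized the probes with RMA (background correction, quantile normalization, median polish) in Expression Console 1.4. The deposited log2 signals were used without further normalization. The study applied its limma threshold to other signals, made by RMA in R with another annotation of the probes (Brainarray). The counts given here are therefore not those of the study. No source used here says whether these 6 arrays were normalized without others. A deposited workbook gave the annotation, and its 6 signal columns were left out because their names fit none of the samples. Quantile normalization makes every difference relative to the other transcripts of an array.

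Tested were 25385 clusters of category main or rescue, and 2173 probe sets of other categories, such as normalization and spike controls, were left out. Median signals ran from 6.51 to 6.59. Symbols of other genes were also found through gene IDs, RefSeq transcripts and Ensembl genes. MSC and control were compared with limma 3.58.1 in R 4.3.3 (4 residual degrees of freedom), with Benjamini-Hochberg adjustment over all clusters, and the fit was tested on simulated data. The p-values of limma rest on the spread among the arrays of a group, moderated with the spread of all clusters (3.80 prior degrees of freedom). Of the positions in the annotation 0.353% of 6517 start within 1000 bases of the Sscrofa10.2 position given beside them, so they follow another build. Of the pathway lists the text names genes past the threshold and the 3 with the smallest p, and some others chosen after their values were seen. Of the markers it names those past the threshold and the smallest p of a list, of which 1 is not reported here. The receptors and lists were chosen with earlier results of these data known. The study had placed TLR2, TLR3, TLR6 and TLR7 in a gene network, so their values are not independent evidence. That network joined results of liver and lung arrays with a database of protein interactions. No sequences were used.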

Additional observations from a re-analysis of the deposited data

How the results depend on the processing

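Past the threshold were 692 clusters, 314 higher and 378 lower in MSC. Median centring turned this balance (384 and 305). The count was 188 without clusters of low signal, 266 with 1 cluster per gene, 1565 with array weights and 32 by the methods' t-test. It ran from 445 to 2215 with 1 array left out, and it was 0 after adjustment.

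The count of 1 among the 9 receptor genes became 0 with repeated quantile normalization, without clusters of low signal, by the methods' t-test and after adjustment. It ran from 0 to 1 with 1 array left out, and without control 2 the 1 gene past the threshold was TLR7 in place of TLR3. The median difference of 0.08 ran from -0.09 to 0.20 with 1 array left out, and it was 0.37 without clusters of low signal, where TLR3 and MYD88 alone remained.

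The count of 3 pathway genes was 0 without clusters of low signal, by the methods' t-test and after adjustment, 10 with array weights, 5 when replicate numbers formed a block and between 0 and 16 with 1 array left out. Signs turned for TLR4 with median centring (0.029), for TLR2 with the mean of its clusters (0.016), and with 1 array left out for TLR1 (-0.088 to 0.26), TLR4 (-0.38 to 0.24), TLR6 (-0.030 to 0.19), TLR8 (-0.48 to 0.22), TLR9 (-0.31 to 0.13) and CD180 (-0.088 to 0.61). Where no cause is named it was not tested.

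Replicate numbers are shared between the groups, and the deviations of same-numbered arrays correlated at -0.02, 0.25 and -0.08, so the numbers were not taken as pairs. With the replicate block 834 clusters passed, and 1 receptor gene. The use of the fully assigned TLR6 cluster, a choice made after seeing the data, left the count at 1. The number of arrays limits the precision of all values.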
